A study of Sus scrofa with 6 samples.

Results

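The SIN3 core complex subunits were the 10 genes SIN3A, SIN3B, SUDS3, SAP18, SAP30, SAP130, ARID4A, ARID4B, BRMS1 and ING2, chosen as the rows of the abundance table that carry these gene names. All 10 were found among the 17678 genes of the table, and all 10 were among the 11986 genes tested, whose average over the 6 libraries reached 10. Pools of 20 porcine 2-cell parthenotes, 3 per group, had been collected for mRNA sequencing when 32 h had passed since activation. MII oocytes were injected before activation with negative control siRNA (NC) or with siRNAs against SIN3A (KD). Both groups were parthenotes of oocytes matured in vitro, so all embryos carried a maternal genome only, and injection, activation and culture were shared by both groups. The study describes its replicates as independent, while the labels do not say whether each came from a separate batch of oocytes. The spread between these pools may thus in part be technical. The limma p-values and intervals draw the spread of each gene towards a trend over all tested genes. They therefore do not measure the spread of a single gene between the pools alone. The comparison asks how much SIN3A transcript was left after knockdown, how the SIN3 paralogs and their subunits ranked in control embryos, and whether the other subunit transcripts differed once SIN3A was low.

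SIN3A and SIN3B are paralogous scaffold proteins that do not bind DNA themselves. They carry paired amphipathic helix domains that bind sequence-specific repressors, and a central region that holds the histone deacetylases HDAC1 and HDAC2 together with the other subunits, so that deacetylation of histones is directed to chosen genes. In growing oocytes, transcripts of such chromatin proteins are stored, and the early embryo relies on this maternal store until its own genome becomes active.

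SIN3A (ENSSSCG00000001880) lies on the plus strand of chromosome 7 in Sscrofa11.1, chr7:58171821-58246126, with 11 RefSeq mRNAs and 22 exons in the longest. SIN3B (ENSSSCG00000013867) lies on the minus strand at chr2:60750227-60791660. The RefSeq proteins, of 1274 and 1121 residues, were identical at 55.7% of 1107 aligned positions. The values come from a tool that assigns reads by short matches, so the longest stretch shared by the longest mRNAs of both genes, which is coding in each, is shown here, 15 bases of its surroundings on each side included. Capitals mark the identical run of 25 bases, and both lines read 5′ to 3′ along the mRNA.
SIN3A, coding sequence of exon 17, chr7:58225940-58225994, plus strand: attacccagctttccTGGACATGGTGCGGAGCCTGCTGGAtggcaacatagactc
SIN3B, coding sequence of exon 14, chr2:60757700-60757754, minus strand: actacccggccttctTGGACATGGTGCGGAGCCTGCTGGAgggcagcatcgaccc
The windows were identical at 47 of 55 bases. The run is shorter than 31 bases, and the longest mRNAs of SIN3A and SIN3B had no stretch of 31 bases in common. A read match of that length therefore told the scaffold transcripts apart.

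The other paralog pairs had shorter identical runs. SAP30 and SAP30L shared 65.6% of 180 aligned residues but no identical run above 16 bases, and ING2 and ING1 shared 54.5% of 277 residues and a run of 15 bases. The windows around these runs are shown in the same way, since the ratios of these pairs are compared further on.
SAP30, coding sequence of exon 1, chr14:16681325-16681370, minus strand: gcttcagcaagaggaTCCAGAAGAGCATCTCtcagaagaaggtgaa
SAP30L, coding sequence of exon 1, chr16:68709559-68709604, minus strand: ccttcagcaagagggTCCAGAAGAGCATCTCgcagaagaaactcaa
ING2, coding sequence of exon 2, chr15:44924114-44924158, plus strand: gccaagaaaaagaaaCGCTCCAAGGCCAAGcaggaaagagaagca
ING1, coding sequence of exon 2, chr11:77276408-77276452, plus strand: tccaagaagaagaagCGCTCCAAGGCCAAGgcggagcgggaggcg
SAP30 and SAP30L were identical at 40 of 46 bases in these windows, and ING2 and ING1 at 35 of 45. ARID4A and ARID4B were identical at 49.2% of aligned residues. Across the 10 subunits, between 0% and 2.04% of the 31-base stretches of the longest mRNA also occurred in an mRNA of another gene, with the highest share in SAP18.

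In NC embryos, SIN3A was far more abundant than SIN3B. The deposited normalized value of SIN3A was 37361, 33964 and 32404 in the NC libraries, and that of SIN3B was 730.0, 755 and 851. Longer transcripts yield more fragments, so levels of different genes were compared per kb of mRNA, with the median length of the RefSeq mRNAs of each gene. On this scale SIN3A stood at 6394 ± 469 (SD, n = 3) and SIN3B at 163 ± 13.3 (SD, n = 3). The ratio of SIN3A to SIN3B per kb was 45.2, 39.8 and 33.7 in the 3 NC libraries, with a mean of 39.5 ± 5.78 (SD, n = 3). SIN3B thus made up 2.16%, 2.45% and 2.89% of the summed SIN3 scaffold transcript. With the longest or the shortest RefSeq mRNA as the length, the mean NC ratio was 39.8 and 38.9.

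Relative to other transcripts of the control embryo, SIN3A ranked 39 among the 10324 tested genes with a RefSeq length, so that 99.6% of these genes had a lower level per kb. SIN3B ranked 3376, above 67.3% of the genes. The median tested gene stood at 67.9 per kb in NC.

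SUDS3, SAP30, ARID4A and SAP130 followed SIN3A. SUDS3 (ENSSSCG00000009849, chr14:34241220-34317092) encodes a subunit that links the deacetylases to the scaffold, and its NC level was 3220.1 ± 274 per kb (SD, n = 3), above 99.0% of tested genes. SAP30 (ENSSSCG00000030118, chr14:16625893-16681950), a small protein that bridges SIN3 with partner repressors, stood at 2216 ± 102 per kb (SD, n = 3), above 98.2%. ARID4A (ENSSSCG00000005073, chr1:187385324-187452558), a retinoblastoma-binding protein with an AT-rich interaction domain, stood at 1226 ± 84.4 per kb (SD, n = 3), above 95.5%. These subunits, with SIN3A, were among the more abundant transcripts of the control embryo. SAP130 (ENSSSCG00000015859, chr15:59312401-59408813), a large subunit bound to SIN3A, stood at 1109 ± 60.2 per kb (SD, n = 3), above 94.8%.

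The remaining subunits were lower. ARID4B (ENSSSCG00000010156, chr14:55924333-56082209), the paralog of ARID4A, stood at 213 ± 17.0 per kb (SD, n = 3). SAP18 (ENSSSCG00000028865, chr11:1290195-1298990), a small protein also found in splicing-dependent exon junction complexes, stood at 96.9 ± 18.0 per kb (SD, n = 3). BRMS1 (ENSSSCG00000012939, chr2:6046077-6053672), a relative of SUDS3 first described as a metastasis suppressor, stood at 69.2 ± 8.19 per kb (SD, n = 3), close to the median of the tested genes. ING2 (ENSSSCG00000024555, chr15:44917595-44925900), whose PHD finger binds methylated histone tails, was lowest by far at 3.82 ± 0.27 per kb (SD, n = 3), above only 4.79% of tested genes. Its deposited values correspond to an estimated 9 to 16 reads per library, so its level and its fold change are the least precise of the 10.

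Between neighbours in the NC order, the 3 libraries of the higher gene lay above the 3 of the lower gene in every step but one. ARID4A and SAP130 overlapped, and SAP130 was the higher of the pair in NC replicate 2. The step from SIN3A to SUDS3 was 1.99-fold, and that from BRMS1 to ING2 was 18.1-fold. The order at the top depends on the mRNA length, which ran from 1200 to 6141 bases in the RefSeq mRNAs of SUDS3. With the shortest mRNAs SUDS3 came first at 7208 per kb and SIN3A second at 6788 per kb, and with the longest ones SIN3A was first at 6060 per kb and SAP30 passed SUDS3. SIN3B kept its seventh place under each choice of length.

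**Figure D1:**
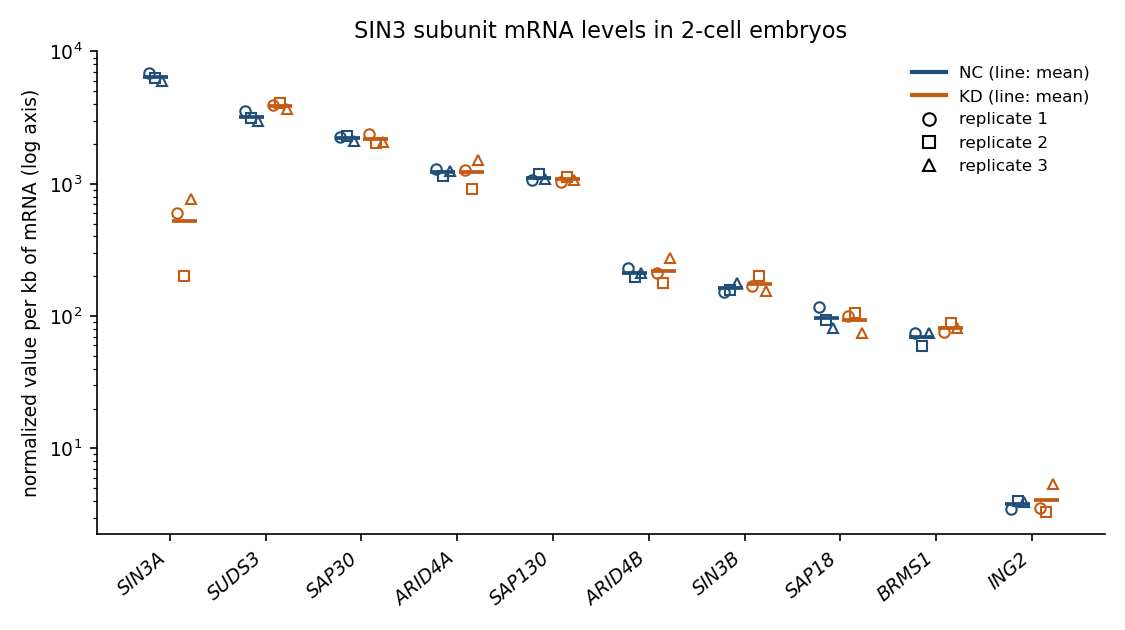
Normalized value per kb of mRNA (log axis) of the 10 SIN3 subunits in each of the 3 NC (blue) and 3 KD (orange) libraries, with symbols for the replicate number and a line at the group mean. SIN3A falls from 6394 to 525 per kb, SUDS3 is the highest in KD, and the other groups lie close together.

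The targeted gene was checked first. SIN3A measured 3271, 1079 and 4173 in the KD libraries, replicates 1 to 3 in this order, against 32404 to 37361 in NC. Its level per kb was 525 ± 294 (SD, n = 3) in KD. The highest KD library lay far below the lowest NC library, so the groups did not overlap and the target gene followed the label in all 6 libraries. The KD libraries retained 9.46%, 3.12% and 12.1% of the NC mean, so the amount of SIN3A left differed between KD replicates more than its level differed between NC replicates (SD of log2 values 1.04 in KD and 0.10 in NC). The log2 fold change was -3.81 (95% confidence interval -4.46 to -3.17, SE 0.31), with an adjusted p of 8.4e-06 in limma after Benjamini-Hochberg adjustment over all tested genes. Without KD replicate 2 it was -3.22. The call was lost in limma where the variance was not modelled as a trend of the mean (SE 0.49, adjusted p = 0.42). It was also lost with the robust form of the same step (SE 0.58, adjusted p = 0.47). Variances of other genes enter the SE of 0.31, which is smaller than in both of these fits. Total RNA per embryo was not assessed, since the spike-in mRNAs named in the labels were not used here, and in such pools fewer cells of a type and less RNA per cell cannot be told apart.

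SIN3A was the 1 of 10 subunits past an adjusted p of 0.05, where 19 of all 11986 tested genes (0.159%) passed, and it was also past the absolute log2 fold change of 0.8, as were 15 genes (0.125%). At an unadjusted p below 0.05 the subunits were SIN3A and SUDS3, beside 553 of all tested genes (4.61%). The values of the groups did not overlap for SUDS3 and BRMS1, both higher in KD, where 581 of all tested genes (4.85%) lay that way, and for SIN3A, lower in KD, where 592 (4.94%) did. SIN3A was the target of the siRNAs. The other 9 subunits had a median log2 fold change of 0.030 and a median absolute value of 0.061, beside 0.0026 and 0.12 over all tested genes. These medians were not matched for level, with which the spread changes. The median SD of log2 values in NC was 0.094 for genes at the level of SUDS3 and 0.53 at that of ING2.

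**Figure D2:**
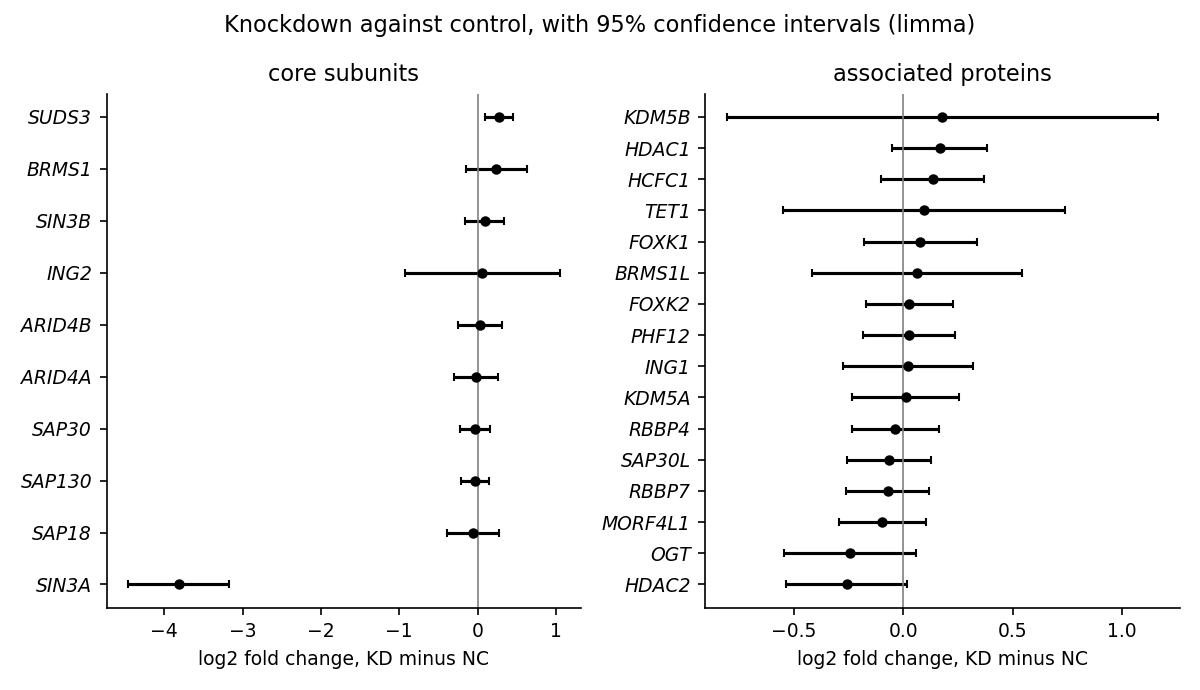
Log2 fold change of KD over NC (points) with 95% confidence intervals (bars) from limma, for the 10 core subunits (left) and 16 associated proteins (right, on a narrower axis). SIN3A stands apart at -3.81, and SUDS3 is the other gene whose unadjusted interval does not reach 0.

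SUDS3 was slightly higher in KD, without passing the adjusted threshold. In NC it measured 9452, 8491 and 8004, and in KD it measured 10498, 10965 and 9908. The lowest KD library lay above the highest NC library, by less than the range within NC. The log2 fold change was 0.28 (95% confidence interval 0.094 to 0.46, SE 0.086), with an adjusted p of 0.68 in limma. The exact two-sided permutation test over the 6 libraries gave p = 0.1, the smallest value that 3 against 3 allows.

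BRMS1, of the same protein family as SUDS3, lay in the same direction with wider error. It measured 116, 93.8 and 116 in NC and 119, 138 and 127 in KD, so the lowest KD library was just above the 2 higher NC libraries. The log2 fold change was 0.24 (95% confidence interval -0.15 to 0.63), with an adjusted p of 0.997 in limma, and the interval included 0. The ratio of SUDS3 to BRMS1 per kb was 46.9 ± 6.29 in NC and 47.8 ± 3.21 in KD (SD, n = 3), and the libraries of the groups overlapped.

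SIN3B showed no call in either direction. It measured 802, 959 and 734 in KD, within or above the NC range of 730.0 to 851, and KD replicate 2, the library with the least SIN3A, had the highest SIN3B value of the 6. The log2 fold change of SIN3B was 0.090 (95% confidence interval -0.16 to 0.34), with an adjusted p of 0.997 in limma. On the linear scale the interval ran from 89.5% to 127% of the NC level. With 3 replicates, changes of SIN3B within these bounds are not excluded, and the bounds are not a limit of detection.

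Because SIN3A fell and SIN3B was little different, the balance of the paralogs shifted. The ratio of SIN3A to SIN3B per kb was 3.60, 0.99 and 5.02 in KD replicates 1 to 3, all below the lowest NC ratio of 33.7. In KD replicate 2 the paralogs were at parity. SIN3B made up 21.7%, 50.1% and 16.6% of the summed scaffold transcript in KD. The log2 ratio changed by -3.91 from NC to KD, and the exact two-sided permutation test gave p = 0.1, again the smallest possible. Without KD replicate 2 the change was -3.21.

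The ratios of the other related pairs overlapped between groups. ARID4A to ARID4B per kb was 5.76 ± 0.11 in NC and 5.58 ± 0.48 in KD (SD, n = 3). SAP30 to SAP30L was 6.95 ± 0.34 in NC and 7.14 ± 0.63 in KD. BRMS1 to BRMS1L was 2.52 ± 0.30 in NC and 2.85 ± 0.36 in KD. In each of these pairs the member named first was the more abundant in all 6 libraries. ING2 was the reverse case, at 0.037 of ING1 in NC and 0.040 in KD, so that ING1 was the main transcript of the ING pair in these embryos.

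**Figure D3:**
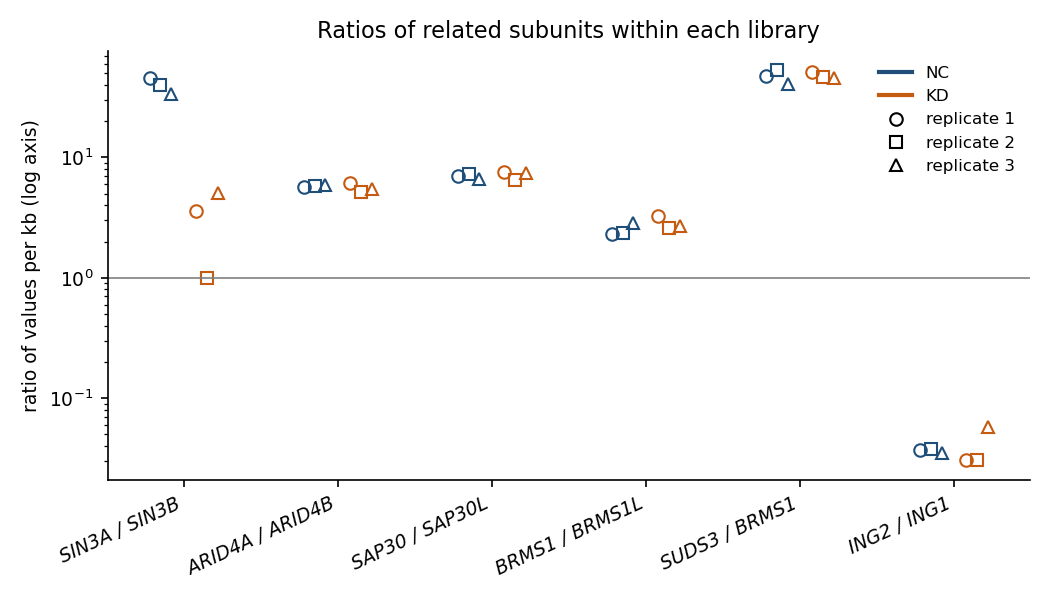
Ratio of the levels per kb of related subunits within each library (log axis, with a line at equal levels) for NC (blue) and KD (orange), with symbols for the replicate number. The SIN3A to SIN3B ratio is 33.7 to 45.2 in NC and 0.99 to 5.02 in KD, and the NC and KD libraries overlap for the other 5 pairs.

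SAP30 and SAP130, which are among the abundant subunits, had overlapping groups and narrow intervals. SAP30 measured 3813, 3879 and 3554 in NC and 4041, 3466 and 3526 in KD, with a 95% confidence interval of 85.9% to 112% of the NC level. SAP130 measured 4306, 4781 and 4442 in NC and 4225, 4597 and 4362 in KD, with an interval of 86.2% to 110.2%. A change beyond these bounds would lie outside the intervals. The annotated span of SAP30 overlaps that of SCRG1 on the other strand, and the library kit does not mark strand. Whether their exons overlap was not tested, and reads of any shared exon part could not be told apart. SCRG1 itself was at 36.5 to 51.4 in the 6 libraries.

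SAP18 measured 566, 457 and 393 in NC and 484, 514 and 360.5 in KD. The groups overlapped in part, with NC replicate 1 above every KD library and KD replicate 3 below every NC library, and the interval of 76.3% to 120.5% of the NC level was wider than those of the more abundant subunits. RefSeq holds a single SAP18 mRNA of 4873 bases for a protein of 172 residues, so its level per kb rests on that 1 length.

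ARID4A and ARID4B differed little between the group means and much between KD libraries. ARID4A measured 7574, 6603 and 7216 in NC and 7445, 5336 and 8770.0 in KD. ARID4B measured 1361, 1162 and 1247 in NC and 1237, 1051 and 1615 in KD. For both paralogs, KD replicate 2 was the lowest and KD replicate 3 the highest of the 6 libraries, and the NC range lay inside the KD range. The log2 fold changes were -0.017 (95% confidence interval -0.30 to 0.26) for ARID4A and 0.030 (-0.25 to 0.31) for ARID4B, with an adjusted p of 0.997 from limma for each.

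The SD of log2 ARID4A over the KD libraries was 0.37, beside a median of 0.080 over 278 tested genes of like level (mean within 0.5 on the log2 scale), and 98.9% of those had a smaller SD. For ARID4B the SD was 0.31, beside a median of 0.11 over 1176 genes of like level, of which 97.6% had a smaller SD. In NC the SDs of ARID4A and ARID4B were 0.10 and 0.11, near the medians of 0.099 and 0.12 for genes of like level.

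ING2 measured 11.5, 13.2 and 12.8 in NC and 11.7, 10.8 and 17.6 in KD, again with KD replicate 2 as the lowest and KD replicate 3 as the highest library. At these levels its SD of 0.35 over the KD libraries was below that of most genes of like level, whose median was 0.52. Its interval ran from 52.6% to 207% of the NC level, so a change of ING2 within these bounds is not excluded at this depth. The annotated span of ING2 overlaps that of LOC100621235 on the other strand. Whether their exons overlap was not tested, and the strand of the ING2 reads is not known.

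The KD libraries with the lowest and the highest SIN3A were also apart in several other subunits. KD replicate 3 exceeded KD replicate 2 by 1.95 on the log2 scale in SIN3A, by 0.72 in ARID4A, by 0.66 in ING2 and by 0.62 in ARID4B. KD replicate 3 was below KD replicate 2 by a log2 difference of -0.51 in SAP18 and -0.38 in SIN3B, with SAP30, SAP130, BRMS1 and SUDS3 between -0.15 and 0.025. These are differences between 2 libraries and have no replicate check.

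GC content of the mRNA moved with some differences between libraries. Over 10324 tested genes, the log2 difference of KD replicate 3 minus KD replicate 2 had a Spearman correlation of -0.18 with GC content, and it was -0.65 over the 10 subunits, given as a description since the genes share their libraries. The GC content of the longest mRNA was 36.3% in ARID4A and 40.8% in ARID4B, the lowest 2 of the subunits, and 58.8% in SIN3B and 62.4% in BRMS1, the highest 2. For genes with a GC content below 40%, the median log2 difference of that pair of libraries was 0.11, against 0.72 in ARID4A. The correlation was -0.18 for KD replicate 3 minus KD replicate 1 and -0.011 for KD replicate 2 minus KD replicate 1. Over the 10 subunits it was -0.31 and 0.90 for these pairs, so the subunits did not follow all genes in the latter pair. In NC it was 0.41 and 0.40 over all genes for replicates 2 and 3 minus replicate 1, and -0.0067 for replicate 3 minus replicate 2, so it lay in the pairs that include NC replicate 1. The part of GC content in the values of the subunits was not tested.

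**Figure D4:**
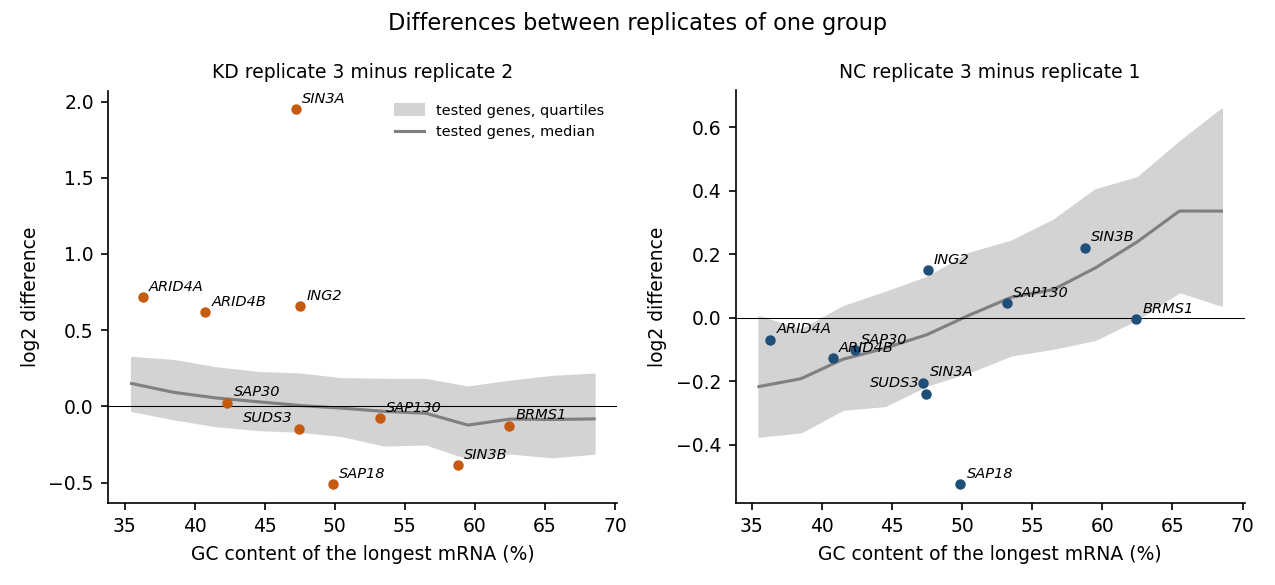
Log2 difference between 2 libraries of one group against the GC content of the longest mRNA (%), for KD replicate 3 minus 2 (left) and NC replicate 3 minus 1 (right). Points are the 10 subunits, the grey line and band are the median and quartiles of tested genes in bins of GC content, and SIN3A, ARID4A, ARID4B and ING2 lie above the band on the left, with SIN3A highest at a log2 difference of 1.95.

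None of the 9 subunits other than SIN3A passed the test under any of the alternatives run, and the sign of 7 of them turned when a single library was left out. That held for SIN3B and SAP30 without KD replicate 2, for SAP130 without NC replicate 2 and for ING2 without KD replicate 3. It also held for SAP18 without NC replicate 1 or KD replicate 3, for ARID4A without NC replicate 1 or KD replicate 2, and for ARID4B without NC replicate 2 or KD replicate 3. SUDS3 and BRMS1 kept their sign in all of these fits.

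The summed level of the 10 subunits per kb was 14711 ± 844 in NC and 9482 ± 458 in KD (SD, n = 3). SIN3A made up 44.2%, 43.1% and 42.9% of this sum in the NC libraries and 6.19%, 2.23% and 7.94% in the KD libraries. The sums, shares and ranks given here rest on the median mRNA length and change with it. With the shortest mRNAs SUDS3 was above SIN3A in the NC mean, at 7208 against 6788 per kb. Without SIN3A, the sum of the other 9 was 8317 ± 377 in NC and 8956 ± 209 in KD, or 107.7% of NC. SUDS3 alone went from a mean of 3220 to 3893 per kb, more than the rise of this sum. It did not pass the adjusted threshold, so the sum does not show a joint rise of the subunits. By rank, SIN3A went from the first of the 10 in every NC library to the fifth in KD replicates 1 and 3 and to the sixth in KD replicate 2, behind SIN3B. SUDS3 was first in all 3 KD libraries. By its mean, SIN3A in KD still stood above 86.9% of tested genes, with 605, 200 and 772 per kb in KD replicates 1 to 3. Within KD replicate 2, SIN3A was above ARID4B, which was at 178 per kb in that library. The KD mean of ARID4B was 221 per kb, above 73.0% of tested genes.

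Of 18 associated SIN3 proteins listed, 16 were found and tested, 2 of them (ING1 and OGT) through their gene identifiers. None of the 16 passed an adjusted p of 0.05 in limma, and 0 passed an unadjusted p of 0.05, beside the 0.159% and 4.61% of all tested genes. Their median log2 fold change was 0.024, with 10 above 0 and 6 below. The groups did not overlap for 0 of them on the higher side (4.85% of all genes) and for 1 on the lower side (4.94%). That gene was OGT, the enzyme that adds O-linked N-acetylglucosamine to proteins, named here after its values were seen, at 287, 303 and 241 in NC and 239, 233 and 226 in KD.

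The deacetylases and histone chaperones of the complex were measured in the same libraries. HDAC1 was at 845 to 980.2 in NC and 964 to 1073 in KD, and HDAC2 was at 454 to 517 in NC and 357 to 468 in KD, with overlapping groups for both. RBBP4, a histone-binding chaperone, was at 2581 to 2697 in NC and 2322 to 2851 in KD. RBBP7, its paralog, was at 5108 to 6291 in NC and 5219 to 5581 in KD. The paralogs of core subunits also overlapped between groups, with SAP30L at 1864 to 1912 in NC and 1674 to 1886 in KD. BRMS1L was at 68.1 to 86.0 in NC and 62.7 to 92.3 in KD, and ING1 at 253 to 298 in NC and 252 to 310 in KD.

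The 5 named genes whose profile over the 6 libraries was nearest to that of SIN3A, by Euclidean distance of log2 values from each gene's NC mean, were CCNB1, VCP, WDR47, LIMA1 and PSTPIP2. Their distances were 2.57, 3.33, 3.33, 3.42 and 3.96. CCNB1, which encodes the mitotic cyclin B1, measured 8891, 9039 and 7729 in NC and 2113, 974 and 2171 in KD. The choice by likeness fixes that these genes were low where SIN3A was low, so their values are a description. CCNB1, VCP, WDR47 and LIMA1 passed an adjusted p of 0.05 in limma and PSTPIP2 did not (adjusted p = 0.85).

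By estimate, each NC library held between 7800000 and 12900000 reads and each KD library between 10200000 and 15800000. The markers could show oocyte or early embryo material and cumulus cells, but not the 2-cell stage or activation. Of 13 oocyte and early embryo markers, 11 were found, with a summed value of 80624 to 88506 in the NC libraries and 78647 to 96689 in the KD libraries. Of 12 cumulus and granulosa cell markers, 10 were found, with a summed value of 168 to 260 in NC and 162 to 226 in KD, of which VIM was the highest. The group mean was below 10 for 6 of these 10 markers in NC and for 7 in KD. PTX3 was listed at 0 in all 3 KD libraries and was at 2.21 or less in NC. Others of the list went the other way, such as CYP19A1 and FOXL2, whose highest values, 10.7 and 13.1, were in KD replicate 3.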

How the data were processed

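Poly(A) RNA of 3 NC and 3 KD pools was sequenced. Per the labels and the methods, the authors assigned reads to Sscrofa11.1 transcripts with Salmon 0.14.1 and used DESeq2 for the group comparison. The deposited table holds, for each Ensembl gene, a normalized signal and not a count, so no count test was run. Groups and replicate numbers came from the sample labels. The members and gene lists were chosen with earlier results of these data known.

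Genes with a mean of at least 10 were fitted on the log2(value + 1) scale in R 4.3.3 (limma 3.58.1), with group as the only term, a variance trend and Benjamini-Hochberg adjustment over 11986 genes. Fold changes on this scale understate those of low genes. Permutation tests were exact and two-sided (scipy 1.17.1). On simulated data for this comparison, 172 of 197 changed genes among 11861 tested were called, with 14 unchanged ones, and 96% of 4-fold and 76% of 2-fold changes. The simulated spread followed a smooth trend with level, with counting noise and no effect of single libraries. These shares therefore do not cover genes as variable as SIN3A in KD, with an SD of 1.04 beside a median of 0.080 at like level.

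Depth was estimated from the step between low values. Only 36.1% to 64.3% of the low values lay within 0.02 of a whole step, so reads were not recovered, and low genes are less precise. Lengths, positions, GC content and sequences came from the RefSeq annotation of Sscrofa11.1, and 86.1% of tested genes had a length by symbol. Proteins translated from it were aligned with Biopython 1.88 (gap penalties 11 and 1).

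The named genes are the members, the associated proteins fixed by list (values for the deacetylases, chaperones and paralogs of members), and the 5 nearest profiles to SIN3A. SAP25 and SINHCAF of that list were not analysed here. The alternatives tried were other pseudocounts (0.1, 10), other filters (none, or a mean of 100 or more), TMM-like and quantile scaling, no variance trend, a replicate block, other mRNA lengths and leaving out each library. The robust step and values not divided by length were added after seeing the data. Immunofluorescence, qPCR and other species were not analysed here.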

Additional observations from a re-analysis of the deposited data

How the results depend on the processing

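Of 386 fold changes under alternatives, 357 kept their direction and side of the threshold, 27 changed sign and 2 lost the call. Without a variance trend, 0 genes passed an adjusted p of 0.05 in limma (622 at an unadjusted p below 0.05), 0 with the fold threshold, and 0 subunits. SIN3A was then at -3.81 with an adjusted p of 0.42. With the robust step, chosen after seeing the data, 0 subunits passed and SIN3A was at -3.81 with an adjusted p of 0.47. The cause was not tested. When 1 library was left out, the count of genes went from 19 to between 11 and 19, with 11 without KD replicate 2 and 12 without NC replicate 2 or 3, and with the fold threshold from 15 to between 10 and 14. SIN3A ranged from -4.20 to -3.22 and SUDS3 from 0.22 to 0.34. Over all alternatives the adjusted p of SUDS3 was at least 0.18.

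Leaving out single libraries moved the log2 fold change from -0.017 to 0.18 in SIN3B, -0.18 to 0.095 in SAP18, -0.10 to 0.011 in SAP30, -0.070 to 0.0061 in SAP130, -0.18 to 0.18 in ARID4A, -0.14 to 0.17 in ARID4B and -0.14 to 0.19 in ING2. Among associated proteins it went from -0.11 to 0.041 in RBBP4, -0.15 to 0.0031 in RBBP7, -0.048 to 0.10 in ING1, -0.062 to 0.21 in BRMS1L, -0.057 to 0.072 in PHF12, -0.13 to 0.15 in KDM5A, -0.24 to 0.47 in KDM5B, -0.13 to 0.40 in TET1, -0.086 to 0.17 in FOXK1, -0.080 to 0.090 in FOXK2 and -0.025 to 0.24 in HCFC1. These were the associated proteins whose sign turned. HDAC1, HDAC2, SAP30L, MORF4L1 and OGT kept their sign, with HDAC1 between 0.11 and 0.22 and HDAC2 between -0.37 and -0.17. KDM5A was at -0.0026 with quantile normalization.

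In the fit with a replicate block, 26 genes passed, 17 with the fold threshold, and SIN3A stayed the 1 subunit called, with SUDS3 at an adjusted p of 0.30 from limma. The block changed no call among the other subunits and the associated proteins. The log2 SIN3A to SIN3B ratio within numbers gave an exact permutation p of 0.25, the smallest that 3 pairs allow. Same-numbered libraries correlated at 0.11, 0.11 and 0.087 after subtraction of group means, and other pairs at -0.051 on average. All 6 libraries correlated best with their own number, which is a hint from the data and not from the design, and the numbers were not taken as pairs. The mean NC ratio of SIN3A to SIN3B was 36.7 to 42.5 when 1 NC library was left out. Low depth limits ING2, at an estimated 9 to 16 reads per library.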
